A study of Homo sapiens with 4 samples.

Results

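The expression of 10 genes of TGF-beta and BMP signaling was examined in MDA-MB231 cells, a human breast cancer cell line, with and without knockdown of PIAS1. The genes were the 4 inhibitor of DNA binding genes ID1, ID2, ID3 and ID4, the inhibitory SMAD genes SMAD6 and SMAD7, the ligand genes TGFB1, TGFB2 and INHBA, and the receptor gene TGFBR2. They were taken by name, using every probe set that the platform's gene table lists for 1 of these genes only, which gave 22 of the 22277 probe sets of the array and 10 of the 11963 genes with a probe set of their own. Each condition was measured on 1 Affymetrix U133A 2.0 array: PIAS1 shRNA2 cells in SCM, control shRNA cells in SCM, PIAS1 shRNA2 cells in DMEM plus 10% FBS (DMEM) and control shRNA cells in DMEM, all for 30 h. SCM (Stem Cell Media) is a serum-free medium with EGF, basic FGF, insulin and albumin. Each shRNA was carried by a stable line made by lentiviral infection and drug selection, and only 1 PIAS1 shRNA was put on arrays, so loss of PIAS1 and any other difference between the lines cannot be told apart. With no replicate array, no ratio was given a test or an error, and in bulk RNA fewer cells that express a gene and less RNA per cell cannot be told apart.

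TGF-beta and activin bind pairs of type II and type I receptors, which phosphorylate SMAD2 and SMAD3, while BMPs act in the same manner through SMAD1, SMAD5 and SMAD9. These SMADs enter the nucleus with SMAD4 and control transcription. The ID genes are direct BMP targets in many cells, and their proteins hold E proteins away from DNA, which favors proliferation over differentiation. SMAD6 and SMAD7 are induced by the pathway and inhibit it, and PIAS1 is a SUMO ligase that can modify SMAD4. In breast cancer cells TGF-beta signaling is known for its part in mesenchymal change and metastasis, and ID1 and ID3 for tumor initiation and lung colonization in mouse models.

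The signals are MAS5 intensities as deposited, on a linear scale, and each array had a median of 569 to 605. A floor of 176 was set from background probe sets, those of genes of other tissues, as the highest of the arrays' 75th percentiles. Some background probe sets lie above it, with a highest 95th percentile of 437, so a signal above the floor can still be background. On each array 65.1% to 68.9% of all probe sets lay above the floor. Ratios were computed with low signals raised to this floor, so a ratio with its dimmer signal under 176 is a bound, and a gene at least 2-fold higher or lower was counted as different. PIAS1 itself was at 37.0% of control in PIAS1 shRNA2 cells in both media on the brightest one of its 3 probe sets. Its further probe sets gave 77.9% and 31.5% in SCM, against 23.1% and 23.8% in DMEM, so the size of the knockdown in each medium depended on the probe set. These percentages were taken without the floor, and that of 23.1% rests on a PIAS1 shRNA2 signal of 158, under the floor. Of 6 mesenchymal markers of this line, 5 were above the floor on all arrays, among them VIM and CD44. Of 8 luminal markers, 5 were above the floor on all arrays as well, namely ESR1, GATA3, EPCAM, KRT19 and ERBB3. The other 3, PGR, FOXA1 and CDH1, were under the floor on all arrays. ESR1 read 357 in PIAS1 shRNA2 cells and 706 in control shRNA cells in SCM, against 206 and 216 in DMEM. Only its signal of 706 was above 437, so the others can be background. The paper reports ESR1 as not detectable by Q-PCR in control shRNA cells and as induced by PIAS1 knockdown, unlike this probe set. The summed signal of the 8 luminal markers was 16373 in PIAS1 shRNA2 cells and 24815 in control shRNA cells in SCM, against 9610 and 11450 in DMEM, and KRT19 alone read 12434 and 18700 in SCM, against 3680 and 4181 in DMEM. GATA3 of the same list went the other way, with 1718 and 3103 in SCM against 4765 and 6040 in DMEM. Of 5 leukocyte markers measured, PTPRC and LYZ were under the floor on all arrays, and the summed signal was 1252 and 1699 in SCM, against 506 and 1071 in DMEM, with CD14 at 961 and 1172, against 355 and 627. Both sums were higher in SCM in each line and lower in PIAS1 shRNA2 cells in each medium, and their part in the medium and knockdown differences below was not tested.

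The bases just before the start of transcription are shown for the ID genes, which differed between media to unlike extents, and for TGFB1 and TGFB2, ligand genes with opposite differences between media. They come from the RefSeq promoter table of GRCh38.p14, which held windows for all 10 genes. Each is 150 bases long and ends 1 base before the annotated start of the gene, read 5′ to 3′ on the strand of the gene. The stretches lie at chr20:31605139-31605288 (plus strand), chr2:8681906-8682055 (plus), chr1:23559502-23559651 (minus), chr6:19837220-19837369 (plus), chr19:41353923-41354072 (minus) and chr1:218345186-218345335 (plus). Capitals mark matches to any of 6 motifs on either strand, namely the TATA box TATAAA, the CCAAT box, the SMAD box CAGAC, a GC-rich SMAD motif read as GGCGCC, the AP-1 motif read as TGANTCA and the cAMP response element read as TGACGTCA.
ID1: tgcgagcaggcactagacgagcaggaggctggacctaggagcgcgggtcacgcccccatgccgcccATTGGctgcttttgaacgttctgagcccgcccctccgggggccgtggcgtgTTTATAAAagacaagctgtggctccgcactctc
ID2: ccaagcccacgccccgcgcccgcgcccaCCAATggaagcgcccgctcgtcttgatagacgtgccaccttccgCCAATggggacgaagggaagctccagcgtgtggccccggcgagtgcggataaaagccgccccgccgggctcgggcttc
ID3: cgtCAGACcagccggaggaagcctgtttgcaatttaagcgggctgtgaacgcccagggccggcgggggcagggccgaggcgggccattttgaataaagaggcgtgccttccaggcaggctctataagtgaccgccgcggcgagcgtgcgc
ID4: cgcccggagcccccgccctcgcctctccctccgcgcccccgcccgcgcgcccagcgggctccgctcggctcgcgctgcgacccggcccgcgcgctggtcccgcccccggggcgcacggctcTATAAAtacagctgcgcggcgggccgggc
TGFB1: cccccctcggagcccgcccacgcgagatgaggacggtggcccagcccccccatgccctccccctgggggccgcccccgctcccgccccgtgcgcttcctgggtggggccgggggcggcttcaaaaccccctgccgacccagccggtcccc
TGFB2: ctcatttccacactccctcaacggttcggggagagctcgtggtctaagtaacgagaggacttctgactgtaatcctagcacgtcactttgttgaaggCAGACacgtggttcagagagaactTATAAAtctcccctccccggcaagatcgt

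The stretch of ID1 held ATTGG, which is CCAAT read on the other strand, and TATAAA overlapped by its reverse TTTATA. That of ID2 had CCAAT at 2 places and no TATAAA, that of ID3 had CAGAC near its far end, and that of ID4 had TATAAA. TGFB2 had both CAGAC and TATAAA, and TGFB1 held none of the 6 motifs. Over the 250 bases before the start, TATAAA in either direction was found in 10.7% of the 35116 windows of the table, CCAAT in 32.0% and CAGAC in 38.0%. These matches describe the letters only. The base composition differed as well, with 83.3% G or C in the stretch of ID4, 80.0% in TGFB1, 64.0% to 70.7% in the other ID genes and 50.7% in TGFB2.

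**Figure D1:**
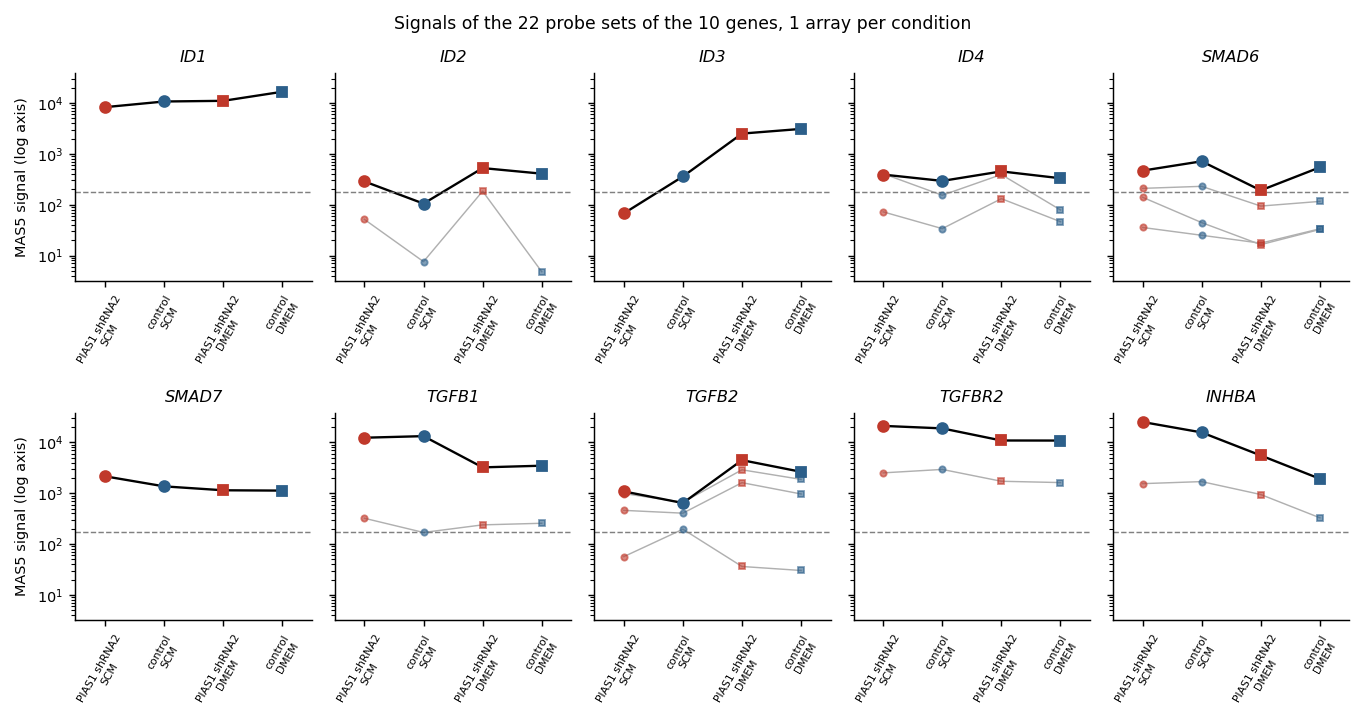
MAS5 signal (log axis) of each of the 22 probe sets in the 4 conditions (x axis), 1 array each, with red for PIAS1 shRNA2, blue for control shRNA, circles for SCM and squares for DMEM. The black line joins the probe set used for the gene, grey lines join the others, and the dashed line is the floor of 176. ID3 is under the floor in PIAS1 shRNA2 cells in SCM, while TGFB1 and INHBA are brighter in SCM than in DMEM on the probe sets used.

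To examine how the genes differed between SCM and DMEM, the media were compared within each cell line. In PIAS1 shRNA2 cells 3 of the 10 genes were at least 2-fold higher in SCM (SMAD6, TGFB1 and INHBA), where 11.0% of 9377 genes were, and 2 were at least 2-fold lower (ID3 and TGFB2), where 10.4% of genes were. In control shRNA cells 2 were at least 2-fold higher (TGFB1 and INHBA), where 10.8% of 9261 genes were, and 3 at least 2-fold lower (ID2, ID3 and TGFB2), where 10.7% were. Each of the 10 genes had the same direction in both lines. Over the genes above the floor on both arrays, the 5th and 95th percentiles of the log2 ratio were -1.46 and 1.47 in PIAS1 shRNA2 cells and -1.48 and 1.40 in control shRNA cells. The log2 ratios of TGFB1, TGFB2, ID3 and INHBA lay outside these ranges in both lines. Across 7738 genes above the floor on all arrays, the medium differences of the lines, which share no array, gave Pearson's r = 0.87 and Spearman's rho = 0.85, as a description across genes, which do not act as independent replicates.

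ID3 was far lower in SCM than in DMEM in both lines. Its signal was 67.5 in PIAS1 shRNA2 cells and 360 in control shRNA cells in SCM, against 2514 and 3109 in DMEM. Both SCM arrays were thus below both DMEM arrays, by 8.64-fold in control shRNA cells and by at least 14.3-fold in PIAS1 shRNA2 cells. ID1, read by 1 probe set, was bright throughout, with 8329 and 10766 in SCM against 11095 and 16740 in DMEM. It was lower in SCM in each line, 1.33-fold in PIAS1 shRNA2 cells and 1.55-fold in control shRNA cells, and was counted as different in neither. Its signals in control shRNA cells in SCM and PIAS1 shRNA2 cells in DMEM were close to each other, and no replicate shows whether neighbors in this order differ.

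ID2 was dim. On its brighter probe set it read 287 in PIAS1 shRNA2 cells and 105 in control shRNA cells in SCM, against 527 and 409 in DMEM. It was 1.83-fold lower in SCM in PIAS1 shRNA2 cells and at least 2.32-fold lower in control shRNA cells, where its SCM signal was under the floor. The other ID2 probe set was under the floor on all arrays but that of PIAS1 shRNA2 cells in DMEM, where it read 185. ID4 differed little between media on the probe set used for it, with 393 and 294 in SCM against 453 and 332 in DMEM. Thus ID1, ID2 and ID3 were all lower in SCM to very different extents, and the ID4 signals in the media were within 1.15-fold of each other in PIAS1 shRNA2 cells and 1.13-fold in control shRNA cells.

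The ligand genes went in opposite directions. TGFB1, which encodes TGF-beta 1, read 12379 in PIAS1 shRNA2 cells and 13298 in control shRNA cells in SCM, against 3229 and 3483 in DMEM. It was 3.83-fold and 3.82-fold higher in SCM in these lines. The dimmer TGFB1 probe set did not follow, with 322 and 169 in SCM against 238 and 256 in DMEM. TGFB2, which encodes TGF-beta 2, read 1086 and 641 in SCM against 4478 and 2639 in DMEM, and was 4.12-fold lower in SCM in both lines. A pair of further TGFB2 probe sets was 2.39-fold to 3.51-fold lower, and the last was above the floor on 1 array only, that of control shRNA cells in SCM, at 196.

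INHBA encodes the subunit of activin A, a ligand of the SMAD2 and SMAD3 branch,. It was higher in SCM in both lines. Its signal was 25254 in PIAS1 shRNA2 cells and 15735 in control shRNA cells in SCM, against 5543 and 1926 in DMEM. The difference was 4.56-fold in PIAS1 shRNA2 cells and 8.17-fold in control shRNA cells. On its other probe set the signals were 1544 and 1694 in SCM against 943 and 329 in DMEM, which is 1.64-fold and 5.15-fold higher. Both probe sets thus gave a smaller medium difference in PIAS1 shRNA2 cells, and this difference between the lines was not tested.

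TGFBR2, the type II receptor gene of TGF-beta, and the inhibitory SMAD genes were higher in SCM by smaller factors. TGFBR2 read 21154 and 18899 in SCM against 10917 and 10881 in DMEM, which is 1.94-fold higher in PIAS1 shRNA2 cells and 1.74-fold higher in control shRNA cells. Its other probe set was 1.46-fold and 1.82-fold higher. SMAD7, which blocks the type I receptors, read 2154 and 1365 in SCM against 1143 and 1127 in DMEM, and was 1.88-fold and 1.21-fold higher. SMAD6, an inhibitor mainly of the BMP branch, read 469 and 716 in SCM against 192 and 545 in DMEM. It was 2.45-fold higher in SCM in PIAS1 shRNA2 cells and 1.31-fold higher in control shRNA cells. The DMEM signal of 192 in PIAS1 shRNA2 cells lay close to the floor, and of the other 3 SMAD6 probe sets 1 was above the floor in SCM and none in DMEM.

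**Figure D2:**
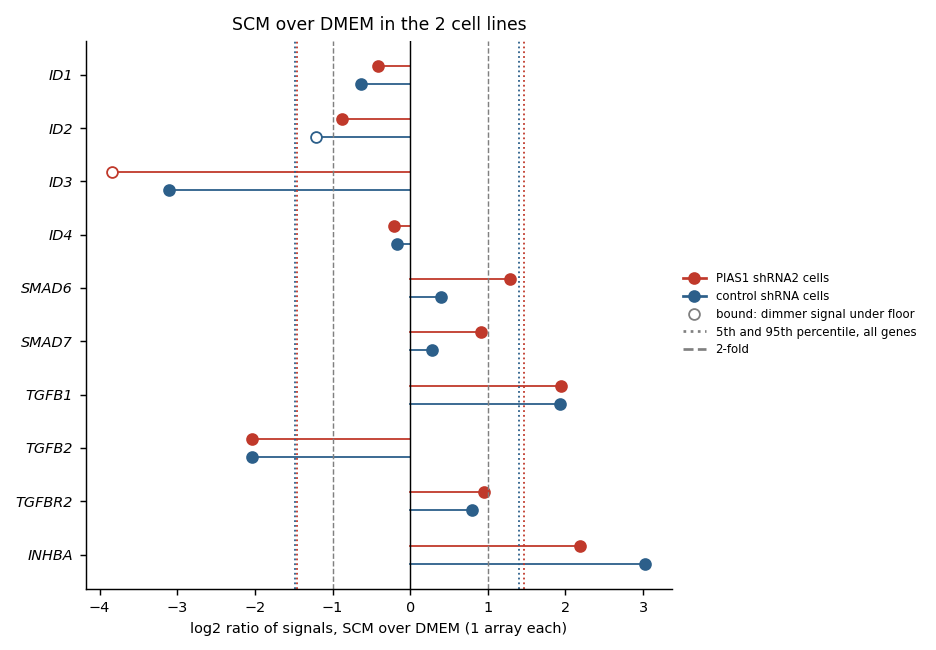
Log2 ratio of SCM over DMEM (x axis) for the probe set used for each of the 10 genes (y axis), red for PIAS1 shRNA2 cells and blue for control shRNA cells, 1 array per condition. Open circles are bounds with the dimmer signal under the floor, dotted lines are the 5th and 95th percentiles of all genes, and dashed lines are 2-fold. ID3 and TGFB2 lie far to the left, TGFB1 and INHBA far to the right.

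The medium comparison was extended to other genes of the pathway. Among 7 measured genes that hold TGF-beta latent or activate it, 4 were at least 2-fold higher and 1 lower in SCM in each line. Over all genes the shares higher and lower were 11.0% and 10.4% in PIAS1 shRNA2 cells and 10.8% and 10.7% in control shRNA cells. Their median log2 ratio was 1.03 in PIAS1 shRNA2 cells and 1.34 in control shRNA cells, beside -0.01 and 0.04 over all genes. LTBP1 and LTBP3, which encode binding proteins of latent TGF-beta, were 3.55-fold and 3.34-fold higher in PIAS1 shRNA2 cells and 3.42-fold and 5.18-fold higher in control shRNA cells. LTBP2 was 2.16-fold and 2.70-fold higher in these lines. LTBP4 was 1.59-fold and 2.54-fold higher. The integrin gene ITGAV, named after its values were seen, was 2.05-fold and 1.42-fold higher. THBS1, whose product thrombospondin 1 activates latent TGF-beta, was 3.74-fold and 2.15-fold lower in SCM. FST, which encodes the activin antagonist follistatin, was also lower, with 1320 and 691 in SCM against 7879 and 4022 in DMEM. FST was therefore 5.97-fold lower in PIAS1 shRNA2 cells and 5.82-fold lower in control shRNA cells, the opposite direction to INHBA.

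Other TGF-beta targets moved both ways between media. Of 12 above the floor on either array, 7 were at least 2-fold higher and 3 lower in SCM in PIAS1 shRNA2 cells, and 6 were higher and 3 lower in control shRNA cells. The shares of all genes were again 11.0% higher and 10.4% lower, and 10.8% and 10.7%. The median log2 ratios of these targets were 1.09 and 1.19 in these lines, beside -0.01 and 0.04 over all genes. ANGPTL4, which encodes a lipase inhibitor, was 12.5-fold higher in PIAS1 shRNA2 cells and at least 22.9-fold higher in control shRNA cells, and JUNB, an AP-1 subunit gene, was 6.78-fold and 8.71-fold higher. CDKN1A, which encodes the cell cycle inhibitor p21, was 5.59-fold and 7.01-fold higher, and the cytokine gene IL11 4.01-fold and 5.57-fold higher. The matrix protein gene CCN2 was 24.0-fold lower in SCM in PIAS1 shRNA2 cells and 3.39-fold lower in control shRNA cells. Its signal in PIAS1 shRNA2 cells in SCM was 383, within the range of the background probe sets, so the size of 24.0-fold is uncertain. The other lower genes, named after their values were seen, were the actin-binding protein gene TAGLN, by 2.57-fold and 2.78-fold, and SNAI2, a transcription factor gene of mesenchymal change, by 2.56-fold and 3.28-fold. Many of these genes answer to other signals too, so the list is not a measure of TGF-beta alone.

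Fewer genes of the remaining lists differed between media. Of the other ligands, GDF15 was 6.46-fold higher in SCM in PIAS1 shRNA2 cells and 2.59-fold higher in control shRNA cells. BMP2 was at least 3.68-fold higher and TGFB3 2.19-fold higher in PIAS1 shRNA2 cells, against 1.08-fold and 1.61-fold in control shRNA cells. INHBB was 1.56-fold lower in PIAS1 shRNA2 cells and at least 2.07-fold lower in control shRNA cells. Among receptors ACVR2B was 2.89-fold higher in PIAS1 shRNA2 cells and 1.92-fold higher in control shRNA cells. TGFBR1 was 1.68-fold and 2.03-fold higher in these lines. TGIF1, which encodes a SMAD corepressor, was 2.70-fold and 2.27-fold higher. HEY1, a target of BMP and Notch signals, was 5.01-fold and 2.33-fold higher, the opposite direction to ID1, ID2 and ID3. It read 1922 and 489 in SCM against 384 and 210 in DMEM. Both DMEM signals were below 437, the highest of the arrays' 95th percentiles over background probe sets. None of the 5 signal-carrying SMAD genes above the floor was at least 2-fold different between media, nor was either of the E-protein genes TCF3 and TCF12.

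To examine the effect of PIAS1 knockdown, PIAS1 shRNA2 cells were compared with control shRNA cells in each medium. In SCM none of the 10 genes was at least 2-fold higher, where 2.25% of 9398 genes were, and only ID3 was at least 2-fold lower, where 1.59% were. In DMEM INHBA was at least 2-fold higher, where 1.67% of 9064 genes were, and SMAD6 at least 2-fold lower, where 0.949% were. The 5th and 95th percentiles of the log2 ratio over all genes above the floor were -0.62 and 0.67 in SCM and -0.52 and 0.60 in DMEM. The other 7 genes were not counted as different in either medium, although the ratio of ID2 in SCM is a bound and does not limit how large its difference was. Across 7738 genes the knockdown ratios in SCM and DMEM, which share no array, gave Pearson's r = 0.25 and Spearman's rho = 0.22.

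The ID genes did not move together with the knockdown. ID3 read 67.5 in PIAS1 shRNA2 cells against 360 in control shRNA cells in SCM, at least 2.04-fold lower, and 2514 against 3109 in DMEM, 1.24-fold lower. Its SCM ratio rests on a signal under the floor and a control signal below 437, which is the highest of the arrays' 95th percentiles over background probe sets. With the arrays scaled to a common median or quantile normalized, the dimmer ID3 signal was still raised to the floor. The bounds were then log2 ratios of -0.9999 and -0.95, which fall short of 2-fold but do not exclude it. ID1 was 1.29-fold lower in SCM and 1.51-fold lower in DMEM. In contrast, ID2 was at least 1.63-fold higher in SCM, with 287 against 105, and 1.29-fold higher in DMEM, with 527 against 409.

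The ID4 probe sets gave different sizes of the same direction. On the probe set used for the gene, ID4 was 1.33-fold higher in SCM and 1.36-fold higher in DMEM in PIAS1 shRNA2 cells. On another it read 409 in PIAS1 shRNA2 cells against 154 in control shRNA cells in SCM, and 393 against 79.0 in DMEM. Both control signals were under the floor, so ID4 was at least 2.32-fold and at least 2.23-fold higher on that probe set. The last ID4 probe set was under the floor on all arrays. ID1 and ID3 were therefore lower, and ID2 and ID4 higher, in PIAS1 shRNA2 cells in both media. The ID2 and ID4 signals were mostly within the range of the background probe sets. Only those of PIAS1 shRNA2 cells in DMEM on the probe sets used, 527 and 453, were above 437.

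INHBA was higher in PIAS1 shRNA2 cells in DMEM on both probe sets, with 5543 against 1926 in control shRNA cells on the brighter and 943 against 329 on the other. These are 2.88-fold and 2.87-fold differences. In SCM the brighter probe set gave 25254 against 15735, 1.60-fold higher, and the other 1544 against 1694, 1.10-fold lower. Subtracting the log2 ratio in DMEM from that in SCM gave -0.84 on the brighter probe set and -1.65 on the other. So the probe sets gave the same size in DMEM and different directions in SCM.

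TGFB2 had nearly the same ratio in both media, 1.69-fold higher in SCM with 1086 against 641, and 1.70-fold higher in DMEM with 4478 against 2639. A further probe set of TGFB2 gave 1.48-fold and 1.54-fold, and another 1.14-fold and 1.67-fold. TGFB1 was 1.07-fold lower in SCM and 1.08-fold lower in DMEM, and TGFBR2 was 1.12-fold higher in SCM and read 10917 against 10881 in DMEM. TGFB1 and TGFBR2 thus lay within the 5th to 95th percentile range in both media on the probe sets used. The dimmer TGFB1 probe set read 322 against 169 in SCM, at least 1.83-fold higher and above that range. In DMEM it read 238 against 256, 1.075-fold lower. All its signals were below 437, the highest of the arrays' 95th percentiles over background probe sets. TGFB2 lay above the 5th to 95th percentile range on the probe set used for the gene. Its further probe sets above the floor on all arrays did so in DMEM, at log2 ratios of 0.63 and 0.74, but not in SCM, at 0.57 and 0.18. As the mean of its probe sets TGFB2 lay within the range, at 0.34 in SCM and 0.53 in DMEM. That mean includes its dimmest probe set, which was under the floor on both DMEM arrays and counted there as 0, and read 56.5 against 196 in SCM.

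The inhibitory SMAD genes differed from each other. SMAD6 read 192 in PIAS1 shRNA2 cells against 545 in control shRNA cells in DMEM, 2.84-fold lower, and 469 against 716 in SCM, 1.53-fold lower. SMAD7 read 2154 against 1365 in SCM, 1.58-fold higher, and 1143 against 1127 in DMEM, 1.01-fold higher. Subtracting the log2 ratio in DMEM from that in SCM gave 0.90 for SMAD6 and 0.64 for SMAD7, values with no test. The DMEM ratio of SMAD6 was carried by the brightest of its 4 probe sets only, since the others were under the floor on both DMEM arrays.

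**Figure D3:**
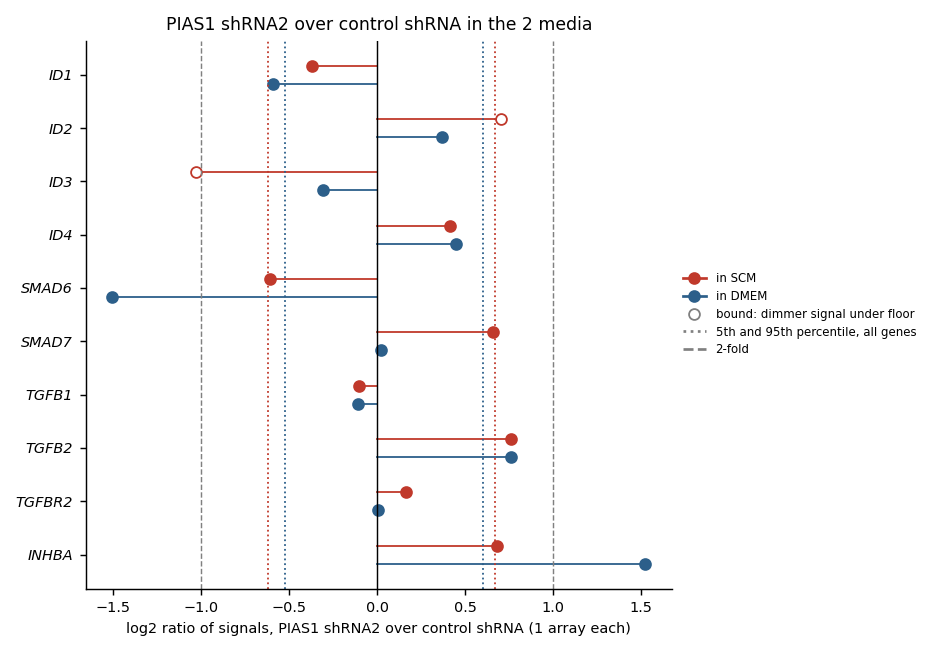
Knockdown ratio in log2, PIAS1 shRNA2 over control shRNA (x axis), for the probe set used for each of the 10 genes (y axis), red in SCM and blue in DMEM, 1 array per condition. Open circles are bounds with the dimmer signal under the floor, dotted lines are the 5th and 95th percentiles of all genes, and dashed lines are 2-fold. INHBA in DMEM lies right of 2-fold, SMAD6 in DMEM and ID3 in SCM left of it.

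Among the other genes of the pathway, differences of at least 2-fold with PIAS1 shRNA2 were found in ligands and targets. TGFB3 was 2.71-fold higher in SCM, with 1218 against 450, and 1.99-fold higher in DMEM, with 557 against 280. BMP2 was 2.37-fold higher in SCM, with 647 against 274, while in DMEM it read 50.8 against 254, at least 1.44-fold lower. No other ligand of the 10 above the floor in SCM or the 8 in DMEM was counted as different, nor was any receptor, signal-carrying SMAD, other inhibitor, latency or E-protein gene in either medium. Some of these ratios are bounds with the dimmer signal under the floor, such as INHBB with 292 against 142 in SCM, and do not exclude a 2-fold difference. Others came close to the limit. FST was 1.91-fold higher in SCM and 1.96-fold higher in DMEM. The receptor gene TGFBR3, named after its values were seen, was 1.51-fold lower in SCM and 1.93-fold lower in DMEM.

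Of 12 other TGF-beta targets, 2 were at least 2-fold higher and 1 lower in SCM, and 4 were higher and none lower in DMEM. Over all genes the shares higher and lower were 2.25% and 1.59% in SCM and 1.67% and 0.949% in DMEM. The chemokine receptor gene CXCR4 was higher in both media, by 3.78-fold in SCM and 4.45-fold in DMEM, as was IL11, by 2.69-fold and 3.73-fold. The matrix genes FN1 and TGFBI passed 2-fold in DMEM only, at 2.95-fold and 2.42-fold, with 1.27-fold and 1.31-fold in SCM. CCN2 was 4.50-fold lower in SCM, with 383 against 1725, and 1.57-fold higher in DMEM. The signal of 383 was below 437, the highest of the arrays' 95th percentiles over background probe sets, so the size in SCM is uncertain. The median log2 ratio of the targets was 0.20 in SCM and 0.56 in DMEM, beside 0.00 and 0.01 over all genes. Of 5 other BMP targets above the floor, HEY1 was 3.93-fold higher and MSX2 at least 2.31-fold higher in SCM. In DMEM no gene of this list was counted as different. RUNX2, named after its values were seen, was 1.66-fold lower in SCM, with 277 against 460. MSX2 read 407 against 79.0 there. Of these signals only 460 was above 437, the highest of the arrays' 95th percentiles over background probe sets. The ratios of these targets, like those of the ID genes, thus did not share a direction, but those of MSX2 and RUNX2 rest on signals near background.

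**Figure D4:**
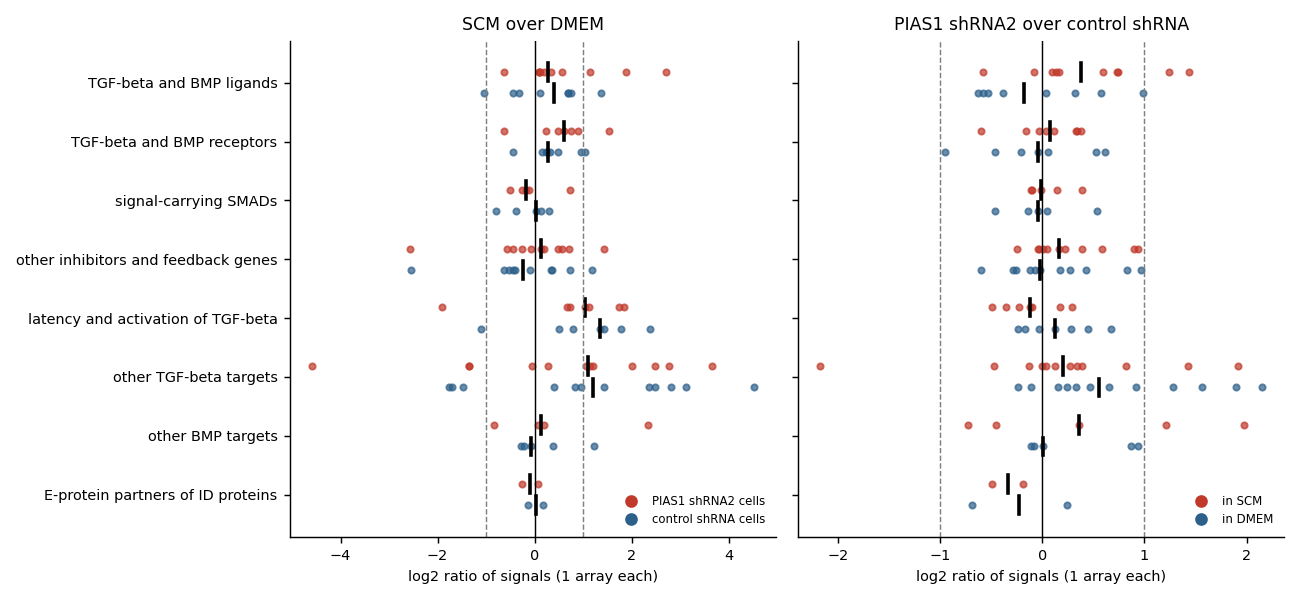
Log2 ratios (x axis) of the genes of 8 further lists (y axis), SCM over DMEM on the left with red for PIAS1 shRNA2 cells and blue for control shRNA cells, and PIAS1 shRNA2 over control shRNA on the right with red in SCM and blue in DMEM, 1 array per condition. Points are genes above the floor on at least 1 of the compared arrays, black bars are list medians and dashed lines 2-fold. The medians of the latency genes and other TGF-beta targets lie right of 1.0 on the left side only.

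The genes nearest to ID1 over the 4 arrays were also listed. Among 7738 genes above the floor on all arrays, the 5 with the smallest largest difference from ID1, after centering each gene's log2 signals on its mean, were PHLPP1 (0.04), RPS6KB2 (0.05), OAS3 (0.07), BAG5 (0.08) and EVI2A (0.08). OAS3, an interferon-induced gene, read 918 and 1227 in SCM against 1291 and 2031 in DMEM. ID2 and ID3 were not among the genes compared, as each was under the floor on 1 array. With 4 arrays many genes have a similar pattern, so the order is a description only.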

How the data were processed

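RNA of the 4 conditions was hybridized to Affymetrix U133A 2.0 arrays, 1 per condition. The deposited values are intensities, signals on a linear scale that the authors made with MAS5 as the submitters' processing notes name it, with its version and settings not given in the sources used here. A mean trimmed by 2% at either end was 2501 on each array. Of the probe sets, 1043 list several genes and 2164 none, and these were not used. Where a gene had several probe sets, the one whose log2 signals averaged highest stood for it. RefSeq Entrez identifiers matched 19058 of 19070 probe sets with 1 gene. Low signals were raised to a floor of 176, the highest of the arrays' 75th percentiles over 61 probe sets of 44 genes of other tissues. Counts over all genes used genes with at least 1 of both signals above it.

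Log2 ratios were computed in 4 comparisons, with at least 2-fold as the limit and no test. The arrays' number limits the precision. Named are all 10 members, up to 4 genes per further list and comparison that were at least 2-fold different, and the 5 genes nearest to ID1. Genes outside this rule, such as PIAS1, the markers, TCF3 and TCF12, were named for the checks or counts they belong to. The members and lists were chosen with earlier results of these data known. ITGAV, TAGLN, SNAI2, RUNX2 and TGFBR3 lie outside the rule and were named after their values were seen. The ratios were recomputed with no floor, a higher floor, common-median scaling, quantile normalization and the mean of a gene's probe sets. The ratio step was tested on simulated data, with changes larger than 2-fold and only in genes well above the floor. That test does not cover signals near the floor or differences near 2-fold. Python 3.11.15, NumPy 2.4.6, pandas 2.3.3 and matplotlib 3.10.9 were used.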

Additional observations from a re-analysis of the deposited data

Results flagged for a closer look

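In 2 probe sets above the floor on all arrays, the knockdown ratio, PIAS1 shRNA2 over control shRNA, had opposite directions in SCM and DMEM. On the dimmer INHBA probe set the log2 ratio was -0.13 in SCM and 1.52 in DMEM, a difference of -1.65. On the dimmer TGFBR2 probe set it was -0.22 in SCM and 0.09 in DMEM, a difference of -0.31. Neither difference was tested, since each condition has 1 array, and the brighter probe set of each gene had the same direction in both media.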

How the results depend on the processing

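Of the 40 log2 ratios of the 10 genes, 39 stayed on the same side of 2-fold with no floor, with common-median scaling and with quantile normalization, and 36 did with a floor at the highest array median of 605 and with the mean of probe sets. A higher floor can only shrink a ratio, so ratios already under 2-fold could not change side there. Ratios of 0 at that floor have both signals under it and are not measured. None of the ratios at least 2-fold changed direction. With PIAS1 shRNA2 in SCM, 1 gene was at least 2-fold lower. The count became 0 with the higher floor, common-median scaling and quantile normalization. There the ID3 log2 ratio of at most -1.03 became 0, at most -0.9999 and at most -0.95. With either scaling its dimmer signal was still raised to the floor, so only the bound moved. The count of genes at least 2-fold higher in SCM became 1 with no floor, from ID2 at 1.45. In DMEM the count at least 2-fold lower became 0 with the higher floor and with the mean of probe sets, where SMAD6 had 0 and -0.38. In control shRNA cells the count at least 2-fold higher in SCM than in DMEM became 1 with the mean of probe sets, where TGFB1 had 0.70. Also under 2-fold were ID2 in control shRNA cells, with 0 at the higher floor and -0.61 as the mean of probe sets, and SMAD6 between media in PIAS1 shRNA2 cells, with 0 and 0.39. Signals near or under the floor limit the ratios of ID2, ID3 and SMAD6. Without a floor the knockdown ratio of ID3 in SCM was -2.41. No paired analysis was possible by replicate number, because each condition has 1 array. A fit with shRNA and medium as additive terms, which pairs the arrays by medium or line and leaves 1 residual degree of freedom, was not run.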
